A study of Drosophila melanogaster with 29 samples.

Results

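The proteasome subunit genes of *Drosophila melanogaster* were described in nuclear RNA of photoreceptors. Members were all genes whose FlyBase symbol begins with Prosalpha, Prosbeta, Rpn or Rpt followed by a digit. The symbol table holds 48 such genes, and 33 of them had a row among the 7602 genes of the deposited expression table. Of the 33, 30 were canonical subunits, 12 of the core particle and 18 of the regulatory particle, and 3 were paralogs, which are related genes with a letter after the subunit number.

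The RNA came from 3 replicate samples of male flies aged 10 days, which carried a UAS-GFP-Msp300KASH transgene, marked w[+mC], at attP2 and the rh1-GAL4 driver, marked ry[+t7.2], on the third chromosome. Their background was mutant for w and carried ry[506]. GFP is thereby fused to the KASH domain of Msp300. All 3 samples carry these alleles, and the labels name no RNA sample of another genotype, age, sex or tissue, so no comparison between conditions exists for these genes. The rh1-GAL4 driver uses the promoter of the rhodopsin gene *ninaE*, which is active in outer photoreceptors, and the tag sits on the nuclear envelope, so the RNA is that of nuclei and not of whole cells. The other 26 samples of the series are chromatin assays on photoreceptor nuclei and were not analysed here.

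The proteasome is the protease that degrades proteins marked with ubiquitin in the cytoplasm and the nucleus. Its core particle is a barrel of stacked rings. The outer rings are made of alpha subunits, which gate the entrance, and the inner rings of beta subunits, of which Prosbeta1, Prosbeta2 and Prosbeta5 carry the active sites. The regulatory particle caps the barrel: its base holds a ring of Rpt ATPases that unfold the substrate, together with Rpn subunits that hold the particle together or bind ubiquitin, and its lid holds the deubiquitinating subunit Rpn11 and its supporting subunits. Each canonical subunit is needed in a fixed ratio to the others in the assembled complex. The fly also has paralogs of several core and regulatory particle subunits, many of them known for expression in the testis.

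Values are normalized counts, which are read counts divided by a size factor for each library. Recovered reads summed over the 7602 genes of the table were 3781302, 3051440 and 3769863 in replicates 1, 2 and 3. These sums leave out reads on genes without a row, and shares of reads below are shares of them. In the same order, 1 read was worth 1.29, 1.49 and 1.32 normalized counts. Because longer genes collect more reads, levels of different genes were compared per kilobase (kb) of gene span. Span is the distance from the first to the last base of the gene in the RefSeq annotation, introns included. Whether reads in introns were counted is not stated. If they were not, division by span lowers genes with long introns relative to compact ones, which was not tested and applies to every per-kb comparison below. The 10 photoreceptor markers, among them *ninaE*, *norpA* and *trp*, had means of 7404 to 72860 normalized counts, all in the highest 10% of the table. Listed markers of glia, muscle, fat body and blood, and cone and pigment cells that had a row had means of 6.52 (*Crys*) to 378.8 (*nrv2*). This range extends below and above that of the canonical proteasome genes, 14.8 to 154.8. Per kb these markers ran from 2.04 (*bt*) to 236.0 (*Pdh*, percentile 96.4), and the photoreceptor markers from 595.2 to 15432. None of the 9 testis markers looked up had a row. In bulk RNA, fewer cells of a type and less RNA per cell cannot be told apart. The labels do not say whether the samples came from separate groups of flies, so the spread between them may be technical.

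The canonical proteasome genes were low in nuclear RNA by number of reads and close to the middle of the table once gene span was divided out. Their means ran from 14.8 (*Prosalpha5*) to 154.8 (*Rpn2*) normalized counts, with a median of 37.0 against 56.8 for all genes in the table. On this undivided scale 7 of 30 lay above the table median, against 50% of all genes by definition, and none was in the highest 10%. Their spans ran from 0.954 to 4.50 kb with a median of 1.45 kb, against 3.49 kb for the 7541 genes of the table with a span. Per kb of span, 19 of 30 lay above the table median, and their median was 22.3 normalized counts per kb against 19.6 for all genes. Relative to the table median, the median of the 30 genes stood at −0.65 ± 0.11 (SD, n = 3 libraries) on the log2 scale of undivided counts and at 0.19 ± 0.10 on that of counts per kb. The direction of this difference therefore depends on whether span is divided out.

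In replicate 1 all 30 genes together made up 0.0303% of the reads on genes of the table, with a 95% Wilson interval from 0.0286 to 0.0321. Replicate 2 had 0.0331%, with an interval from 0.0311 to 0.0352, and replicate 3 had 0.0272%, with one from 0.0255 to 0.0289. Intervals cover counting error only. The interval of replicate 3 overlapped that of replicate 1 and not that of replicate 2. Summed normalized counts, which do not depend on the read total in the same way, were 295.8, 312.2 and 286.9 for the core and 1177, 1195 and 1067 for the regulatory particle.

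**Figure D1:**
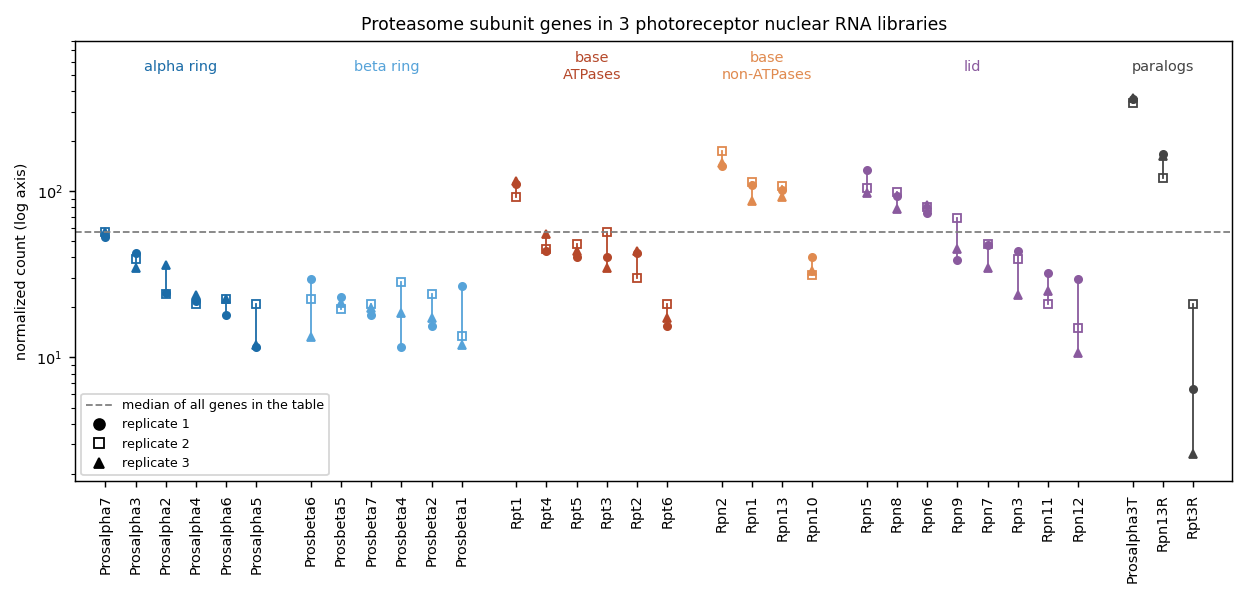
Normalized count (log axis) of the 33 proteasome subunit genes in each of the 3 libraries, grouped by role and ordered by mean within a role. Vertical lines join the lowest and highest library of a gene, and the dashed line is the table median of 56.8. All 12 core genes have means below that line, and *Prosalpha3T* lies above every canonical gene.

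The comparison of the core with the regulatory particle asked whether the parts of one complex were represented at one level. They were not: the median of regulatory particle genes was higher in each library. The margin was larger than the spread between libraries and shrank when span was divided out. Per kb, the median of the 12 core genes was 17.9, 19.0 and 17.8 normalized counts in replicates 1, 2 and 3, and that of the 18 regulatory genes was 25.2, 28.4 and 24.8. The ratio of regulatory to core medians was 1.40, 1.49 and 1.39. This order did not hold between all roles. Per kb, the alpha ring median was 18.2, 20.1 and 23.5 in replicates 1, 2 and 3. That of the lid was 24.9, 25.6 and 19.8, so the alpha ring was above the lid in replicate 3. The beta ring median was 16.3, 16.8 and 13.8. The base ATPase median was 24.1, 26.3 and 25.4, and the base non-ATPase median 36.5, 41.7 and 33.9. On the log2 scale of counts per kb with a pseudocount of 1, the core median minus the regulatory median was −0.47, −0.55 and −0.46, or −0.49 ± 0.05 (SD, n = 3 libraries). Without division by span it was −1.06 ± 0.13. No p-value is given, since genes are not replicates and 3 libraries cannot take an exact two-sided sign-flip test below 0.25.

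The distributions of the particles overlapped. Of 216 pairs of a core and a regulatory gene, the regulatory gene was higher per kb in all 3 libraries in 110, the core gene in 34, and 72 changed order between libraries. The range over libraries of the regulatory gene lay wholly above that of the core gene in 93 pairs and wholly below it in 27. Of the 12 core genes, 10 lay below the regulatory median of 25.5 normalized counts per kb, the exceptions being *Prosalpha7* and *Prosalpha3*. Of the 18 regulatory genes, 17 lay above the core median of 17.7 per kb, the exception being *Rpt6*. Core genes had a narrower range of spans, 0.954 to 1.37 kb, than regulatory genes, 0.995 to 4.50 kb. Genes of the table with spans in the core range had a median of 18.9 per kb, and those with spans in the regulatory range 18.5 per kb, so the core median lay near its span class and the regulatory median above it.

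As a share of reads on the 30 canonical subunits with a row, the core held 20.1%, 20.7% and 21.2% in replicates 1, 2 and 3, on 1145, 1009 and 1024 reads. Here the core is 12 of its 14 genes, without *Prosalpha1* and *Prosbeta3*. The regulatory particle is all 18 canonical genes of the naming rule, without the lid subunit gene *Sem1*, which is outside the rule and had no row. The share is therefore not that of the whole complex. The 95% Wilson intervals ran from 17.9 to 22.5, from 18.3 to 23.3 and from 18.8 to 23.8. The 3 intervals overlapped, so no difference in this share between libraries was detectable at this depth. Per kb of span the core share was 31.8% ± 0.93 (SD, n = 3).

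**Figure D2:**
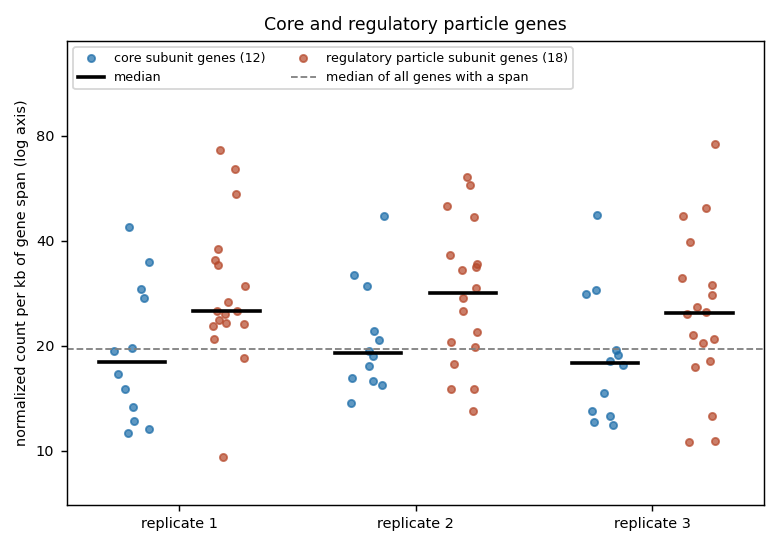
Normalized count per kb of gene span (log axis) of the 12 core genes and 18 regulatory particle genes in each replicate. Bars are medians and the dashed line is the median of all genes with a span, 19.6. The regulatory median lies above that line and the core median below it in each library, and the points of the particles overlap.

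Within the alpha ring, *Prosalpha7* stood apart from the rest. *Prosalpha7* (FBgn0023175) had 52.7, 56.8 and 56.8 normalized counts in replicates 1, 2 and 3, or 46.2 ± 2.0 per kb (SD, n = 3). *Prosalpha5* (FBgn0016697), the lowest of the ring, had 11.6, 20.9 and 11.9, or 14.8 ± 5.3 per kb. The libraries of *Prosalpha7* did not overlap with those of *Prosalpha5* on either scale. *Prosalpha3* was second at 31.6 ± 3.3 per kb, and *Prosalpha2*, *Prosalpha4* and *Prosalpha6* lay between 16.8 and 22.7 per kb. *Prosalpha1* had no row and was not analysed.

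The beta ring genes were the most alike. The 6 with a row had means of 13.8 to 21.3 normalized counts per kb, and the SD between their log2 levels per kb was 0.22, against 0.62 for the 6 alpha genes and 0.64 for the 18 regulatory genes. The catalytic subunits did not stand apart from the structural ones. *Prosbeta5* (FBgn0029134), the chymotrypsin-like subunit, had 23.2, 19.4 and 21.2 normalized counts, or 17.7 ± 1.6 per kb. *Prosbeta1* (FBgn0010590), the caspase-like subunit, had 27.0, 13.4 and 11.9, or 17.8 ± 8.5 per kb. *Prosbeta2* (FBgn0023174), the trypsin-like subunit, had 15.4, 23.9 and 17.2, or 13.8 ± 3.3 per kb.

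*Prosbeta1* was highest in replicate 1 and *Prosbeta2* in replicate 2, and the ranges of all 3 catalytic genes overlapped per kb. The highest of the ring was the structural gene *Prosbeta6* (FBgn0002284), with 29.6, 22.4 and 13.2 normalized counts, or 21.3 ± 8.0 per kb. Its range covers that of *Prosbeta5*, so the order of this pair could not be told from the spread between libraries. *Prosbeta4* and *Prosbeta7* had 20.4 ± 8.9 and 14.5 ± 1.1 per kb. The range of *Prosbeta7* lay wholly below that of *Prosbeta5* per kb, and the ranges of this pair overlapped in undivided counts. *Prosbeta3* had no row.

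Among the base ATPases the level differed most within one ring. *Rpt1* (FBgn0028687) had 110.6, 92.6 and 115.0 normalized counts, or 70.0 ± 7.8 per kb, the highest of all canonical genes. *Rpt6* (FBgn0020369) had 15.4, 20.9 and 17.2, or 11.1 ± 1.7 per kb, the lowest of all canonical genes. Every library of *Rpt1* was above every library of *Rpt6*, and the ratio of their means per kb was 6.33. The other 4 ATPase genes, *Rpt2* to *Rpt5*, lay together at 22.9 to 27.0 per kb.

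Both extremes share their location with another gene in the annotation. The span of *Rpt1* lies entirely within that of *CG17985*, which had 81.6 ± 13.5 normalized counts, or 22.2 per kb. The span of *Rpt6* overlaps that of *CG1801*, which had no row, over 91.3% of its length. The sources used here do not state whether counting used strand, so reads of overlapping genes cannot be told apart, and both values are uncertain.

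The non-ATPase genes of the base were the highest group, with a median of 37.4 normalized counts per kb. *Rpn13* (FBgn0033886), a ubiquitin receptor, had 101.6, 107.5 and 92.5 normalized counts, or 54.1 ± 4.1 per kb. *Rpn10* (FBgn0015283), also a ubiquitin receptor, was the lowest of the group with 39.9, 31.4 and 33.0, or 22.0 ± 2.8 per kb. The ranges of these receptors over libraries did not overlap. The scaffold genes *Rpn1* and *Rpn2*, which encode the largest subunits of the particle, had 33.2 ± 4.5 and 41.5 ± 4.7 per kb. *Rpn2* had the most reads of any canonical gene, 110, 117 and 112.

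Lid genes had a median of 22.2 normalized counts per kb. *Rpn5* (FBgn0028690), a structural lid subunit, had 133.8, 104.6 and 97.8 normalized counts, or 53.9 ± 9.2 per kb, and was the highest. *Rpn12* (FBgn0028693) had 29.6, 14.9 and 10.6, or 18.5 ± 10.0 per kb, and was the lowest. The range of *Rpn12* overlapped those of *Rpn3* (18.7 ± 5.5 per kb), *Rpn11* (18.8 ± 4.1), which encodes the deubiquitinase, and *Rpn8* (20.0 ± 2.4), which encodes its partner. The span of *Rpn8* overlaps over 59.0% of its length with *Slik*, which had 10955 ± 89 normalized counts, so its value is uncertain. *Rpn6*, *Rpn7* and *Rpn9* lay between 24.3 and 31.0 per kb, and their ranges also overlapped that of *Rpn12*.

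Ordered by level per kb, the 30 canonical genes formed a nearly continuous series. Of 29 pairs of neighbours in the order, 27 had ranges over libraries that overlapped. The exceptions were *Rpt1* above *Rpn13* and *Rpn2* above *Rpn1*. The 10 highest genes held 8 regulatory and 2 core genes, and the 10 lowest held 7 core and 3 regulatory genes, of which the regulatory ones were *Rpt6*, *Rpn12* and *Rpn3*.

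Level and span went together across the members. Spearman's rho between span and undivided mean was 0.77 over the 30 canonical genes, 0.34 over the 12 core genes, 0.68 over the 18 regulatory genes and 0.49 over the 7541 genes with a span. These are correlations across genes of the same 3 libraries, given as a description.

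**Figure D3:**
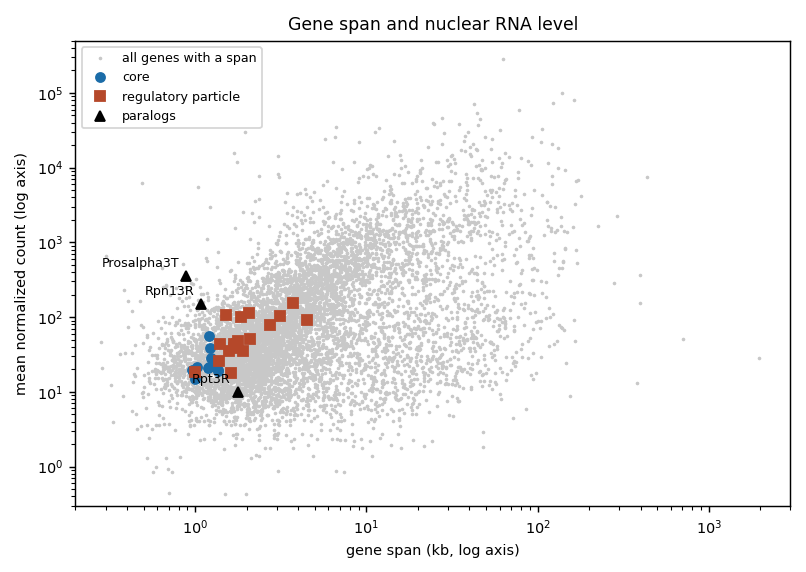
Mean normalized count against gene span in kb (both axes logarithmic) for the genes of the table with a span and a mean above 0, with core, regulatory particle and paralog genes marked. Core genes cluster at the short end of the cloud, regulatory genes extend to 4.50 kb, and *Prosalpha3T* and *Rpn13R* lie above every core gene.

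The highest member was a paralog. *Prosalpha3T* (FBgn0261395; 3R:31122527-31123415 in the Release 6 assembly) encodes the testis-type counterpart of the alpha ring subunit Prosalpha3. It had 277, 225 and 273 reads, or 356.3, 336.1 and 360.9 normalized counts in replicates 1, 2 and 3. Its partner *Prosalpha3* (FBgn0261394) had 42.4, 38.8 and 34.4. The ratio of *Prosalpha3T* to *Prosalpha3* was 9.18 ± 1.15 in normalized counts (SD, n = 3) and 12.6 ± 1.6 per kb, above 8 in each library.

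Per kb, *Prosalpha3T* had 394.9 ± 14.9 normalized counts, at percentile 98.1 of the table, against 31.6 ± 3.3 and percentile 64.2 for *Prosalpha3*. On undivided counts *Prosalpha3T*, with a span of 0.889 kb, was at percentile 80.2 and *Prosalpha3* at percentile 40.4. *Prosalpha3T* alone had 1.95 ± 0.13 times the reads of the 6 canonical alpha ring genes together. Its span overlaps no other annotated gene. The nearest genes are *CG15554*, 2.73 kb away with 13.2 ± 5.9 normalized counts, and *Ktch*, 4.55 kb away with 1667 ± 110. None of the 9 testis markers looked up had a row, and the table sets no limit on their level, because the filter that chose its genes is not stated.

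*Rpn13R* (FBgn0029745; X:5131898-5132985), a paralog of the ubiquitin receptor gene *Rpn13*, was the second highest member per kb. It had 130, 80 and 122 reads, or 167.2, 119.5 and 161.3 normalized counts. The ratio to *Rpn13* was 1.65, 1.11 and 1.74 in normalized counts, and 2.56 ± 0.58 per kb. *Rpn13R* was above *Rpn13* in all 3 libraries. Its span lies entirely within those of *rg* and *CG15465*, which cover the same 169.1 kb. *rg* had 524.6 ± 44.3 normalized counts, or 3.10 per kb, against 137.2 ± 23.9 per kb for *Rpn13R*. *CG15465* had no row. Whether the counting used strand is not given, so the level of *Rpn13R*, its rank and its ratio to *Rpn13* are uncertain.

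*Rpt3R* (FBgn0037742; 3R:9754735-9756510), a paralog of the ATPase gene *Rpt3*, was the lowest member. It had 5, 14 and 2 reads, or 6.43, 20.9 and 2.64 normalized counts, and *Rpt3* (FBgn0028686) had 39.9, 56.8 and 34.4. The mean ratio to *Rpt3* was 0.202 ± 0.150 in normalized counts. Both genes were highest in replicate 2 and lowest in replicate 3. The span of *Rpt3R* overlaps that of *Alg12*, which had 468.6 ± 44.0 normalized counts, over 1.13% of its length. Whether reads of *Alg12* were counted for *Rpt3R* was not tested. The other 13 paralogs had no row. These were *Prosalpha1R*, *Prosalpha4T1*, *Prosalpha4T2*, *Prosalpha6T*, *Prosbeta2R1*, *Prosbeta2R2*, *Prosbeta4R1*, *Prosbeta4R2*, *Prosbeta5R1*, *Prosbeta5R2*, *Rpn12R*, *Rpt4R* and *Rpt6R*. The 3 paralogs with a row took 26.1% ± 2.0 (SD, n = 3) of the reads on all 33 members. Reads of stretches shared between a paralog and its partner could have been assigned to either gene.

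**Figure D4:**
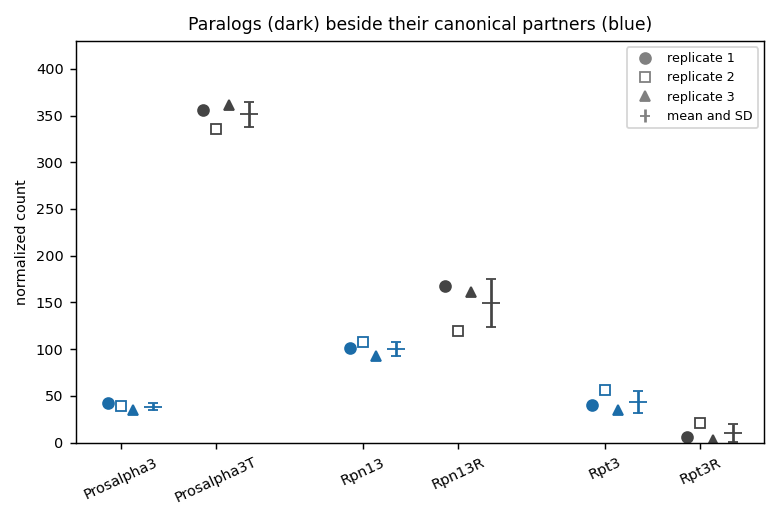
Normalized count of the 3 paralogs with a row and of their canonical partners in each library, with the mean and SD over 3 libraries at the right of each gene. *Prosalpha3T* is 9.18 times as high as *Prosalpha3* on average, *Rpn13R* lies above *Rpn13* in each library, and *Rpt3R* lies below *Rpt3*.

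The members were then tested for differences between the 3 libraries beyond counting error, with a chi-square test per gene over the whole table. Of the 32 members with a mean of at least 10 normalized counts, 0 passed at a Benjamini-Hochberg adjusted p under 0.05, against 9.76% of all 6903 genes tested and 2.56% of the 4018 tested genes with means in the range of the canonical subunits. *Rpt3R*, whose mean was 9.995, fell just under the minimum. At an unadjusted p under 0.05 there were 3 of the 32 members, against 20.9% of all genes tested and 11.5% of those in the range of the canonical means, which leaves out *Prosalpha3T*. They were *Rpn12* (chi-square p = 0.017, adjusted p = 0.123), *Rpn9* (p = 0.029, adjusted p = 0.172) and *Rpn13R* (p = 0.043, adjusted p = 0.219).

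*Rpn12* was highest in replicate 1, *Rpn9* in replicate 2, and *Rpn13R* was lowest in replicate 2, so they shared no direction. Of the 30 canonical genes, replicates 1, 2 and 3 were the highest library for 9, 13 and 8, and the lowest for 12, 7 and 11. The coefficient of variation over libraries had a median of 14.7% for canonical genes. The counting value, the inverse square root of the mean reads per library, had a median of 19.2%, and 16 of 30 genes lay below it. An SD over 3 libraries falls below the true SD more often than above it. The comparison therefore does not show that these genes varied less than counting error. Each canonical gene had between 8 and 117 reads per library, so modest differences between libraries were not detectable.

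Genes that act with the proteasome were measured in the same way. Of 10 listed assembly factors, activators and associated proteins, 9 had a row. Their median of 15.3 normalized counts per kb was below that of the core, and 3 of 9 lay above the table median of 19.6. *Pomp*, the maturation factor of the core, had 34.7, 26.9 and 22.5 normalized counts, or 19.4 ± 4.3 per kb. *REG*, an alternative activator that caps the core, had 23.2, 11.9 and 21.2 normalized counts. *Uch-L5*, a deubiquitinase of the regulatory particle, had 7.21 ± 3.99 per kb on 3 to 11 reads per library. *CG8858*, the fly counterpart of the proteasome adaptor Ecm29, had 41.2 ± 1.5 per kb. *Sem1*, a small lid subunit outside the naming rule, had no row.

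Genes for ubiquitin and for the enzymes upstream were higher. All 13 genes for ubiquitin, its activating enzyme and conjugating enzymes had a row and lay above the table median per kb, with a median of 50.8. *Ubi-p63E*, a polyubiquitin gene, had 167.8 ± 2.0 normalized counts per kb, and *Uba1*, the activating enzyme, had 85.2 ± 6.0. In this list 2 of 13 genes differed between libraries beyond counting error, against 9.76% of all genes tested. They were *eff* (adjusted p = 6.03e-05 by the chi-square test) and *Ubc6* (adjusted p = 0.0326), both conjugating enzymes. Each was highest in replicate 3 and lowest in replicate 2, with 572.4, 495.9 and 700.6 normalized counts for *eff* and 499.1, 452.6 and 580.3 for *Ubc6*. Both had more reads than any canonical subunit, and the test detects smaller differences where reads are more numerous. The count for this list therefore cannot be set against that for the members.

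Of the 7 genes for shuttles and for extraction of substrates, 5 lay above the table median per kb. *Rad23* and *Ubqn*, which carry ubiquitinated proteins to the proteasome, had 113.4 ± 15.8 and 88.0 ± 9.1 per kb, and *TER94*, the segregase ATPase, had 37.6 ± 2.7. *cnc*, the fly member of the transcription factor family that includes the mammalian regulator of proteasome genes Nrf1, had 1399, 1314 and 1486 normalized counts over a span of 41.1 kb, or 34.0 ± 2.1 per kb. Its partner *maf-S* had 61.7 ± 7.3 per kb, and *Hsf*, the heat shock factor gene, 89.8 ± 6.5 per kb. No gene of these lists other than *eff* and *Ubc6* passed the chi-square test.

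For comparison with other complexes of fixed composition, the 8 genes of the cytosolic chaperonin CCT had a median of 22.6 normalized counts per kb with a range of 16.5 to 36.5, and an SD between genes of 0.34 on the log2 scale per kb, against 0.62 for the 30 canonical proteasome genes. The 83 cytosolic ribosomal protein genes had a median of 56.6 per kb and an SD between genes of 0.72. They include *RpL40* and *RpS27A*, which are also in the list for ubiquitin and its enzymes. Per library, the proteasome median was 24.1, 21.9 and 20.6 per kb, the CCT median 26.8, 20.6 and 22.1, and the ribosomal protein median 52.4, 57.7 and 52.5. Proteasome and CCT medians changed order between libraries, and the ribosomal protein median was above both in each library.

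**Figure D5:**
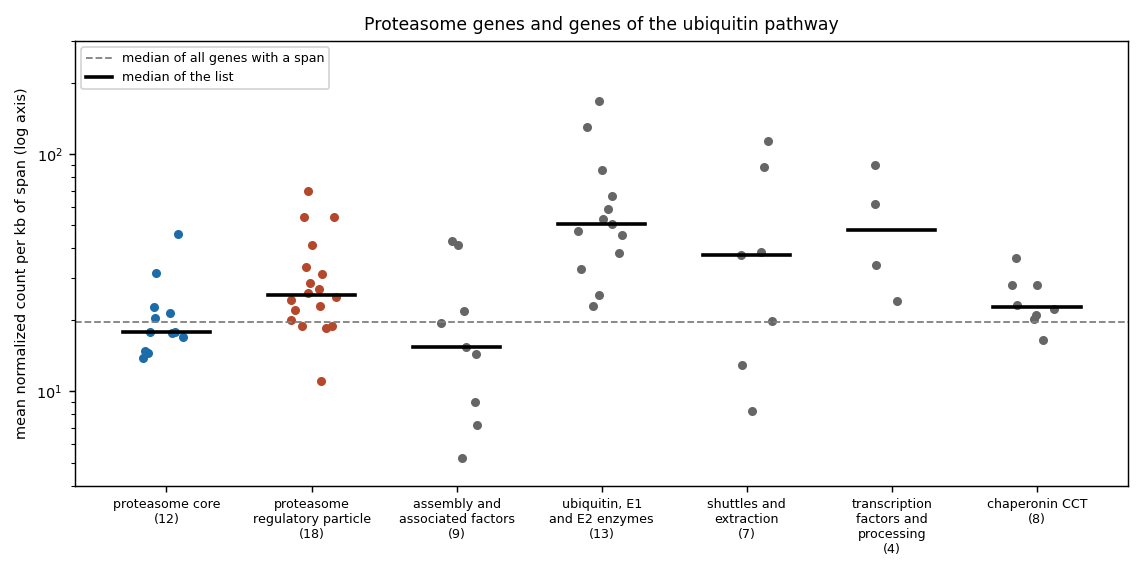
Mean normalized count per kb of span over 3 libraries (log axis) for each gene of the proteasome core, the regulatory particle, 4 lists of ubiquitin pathway genes and the chaperonin CCT, with the number of genes with a row under each name. Bars are list medians and the dashed line is the median of all genes with a span, 19.6. The list of ubiquitin and its enzymes lies wholly above that line, and the core and the assembly list have medians below it.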

How the data were processed

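The deposited table holds log2 values for 7602 genes in 3 nuclear RNA libraries. The name the authors gave it says that counts were normalized with DESeq2, and the submitters' processing notes name Trimmomatic, STAR and, with no role for either, the builds dm6 and BDGP6. The counting program, annotation release, strandedness and gene filter are not given in the sources used here. Reads were recovered from the deposited log2 values: once 2 was raised to a value and 1 subtracted, 100% of values were whole numbers of a smallest unit within each library (tolerance 0.001). Of sample columns, 0 lacked a sample.

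Spread between libraries was tested by a chi-square test of recovered reads against the size factors, in the 6903 genes whose mean reached 10, with Benjamini-Hochberg adjustment over all of them. Symbols (7553 matched) and spans (7541 matched, all 33 members included) came from the FlyBase symbol table and the RefSeq table of Release 6 plus ISO1 MT, which is dm6. Division by coding length, planned at first, was replaced by gene span, since no coding length was at hand. Python 3.11.15, numpy 2.4.6, pandas 2.3.3 and scipy 1.17.1 were used. Full values are given for the catalytic genes, the highest and lowest gene of each role per kb, and the paralogs with their partners. Members and lists were chosen with earlier results of these data known. One listed testis marker, *nos*, could not be looked up by its symbol.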

Additional observations from a re-analysis of the deposited data

How the results depend on the processing

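The core median stayed below the regulatory median under each alternative tried. The difference of −0.49 (log2, per kb) was −1.06 without division by length, −0.35 with a pseudocount of 10 and −0.56 ± 0.32 over subunits that overlap no other gene, a check chosen after seeing the data, and ran from −0.51 to −0.46 with a replicate left out. The core share of 20.7% of proteasome reads became 33.2% with paralogs, 31.8% per kb and 23.6% without overlapping genes (the per-kb share and the last one chosen after seeing the data), and ran from 20.4% to 21.0% with a replicate left out. The share of all reads on genes of the table, 0.0302%, became 0.0408% with paralogs and 0.0367% without the 10 highest genes. It ran from 0.0287% to 0.0317% with a replicate left out.

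The proteasome median relative to the table, −0.65, reversed to 0.19 per kb, chosen after seeing the data, and was −0.95 against genes with a mean of at least 10, whose median is higher by construction. It ran from −0.72 to −0.62 with a replicate left out. The number of members with spread beyond counting error was 0, and 1 with a minimum mean of 1, *Rpt3R* (adjusted p = 0.0168), which the minimum of 10 had left untested. With a replicate left out it ran from 0 to 1, the call again being *Rpt3R*, without replicate 1. Over the whole table the 674 calls ran from 243, without replicate 3, to 681, without replicate 1, and were 342 without replicate 2. Equal totals gave 673 calls and trimmed mean scaling 603, with 0 members in both. Depth limits these values: counting error had a median of 25.4% of the level for core genes, at 9 to 43 reads per library, and 17.3% for regulatory genes. Division by coding length was not run. No paired analysis was possible because RNA values exist for 1 group alone.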
